A study of Mus musculus with 2 samples.

Results

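Plasma cells were examined in 2 single-cell RNA libraries, 1 labelled wild type (WT) and 1 labelled knockout (KO). The study names the tissue as mouse colon. In the KO animals CRISPR-Cas9 had removed the non-coding transcript named LncRNA17Rik in the labels and lncLy6c in the study, on a C57BL/6J background as the study's methods state. The labels describe both libraries as cd11b+ cells of the gut lamina propria, the connective tissue under the epithelium, recovered from a Percoll gradient, stained for sorting and depleted of dead cells. No feature in the files carries the name LncRNA17Rik, so the knockout was not checked in these counts. The study describes the libraries as pools of young adult male mice of 1 age, and states that age and the number of mice, which are not repeated here. With 1 library per genotype no difference between WT and KO has a replicate check, so no p-value is given and a difference between animals, cell recovery or library preparation cannot be told apart from genotype.

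A cell was called a plasma cell where genes for immunoglobulin chains and the joining chain gene Jchain together held at least 10% of its unique molecular identifiers (UMIs, 1 per captured RNA molecule) and where Mzb1, Derl3, Tnfrsf17 and Txndc5 together had at least 2 UMIs. This applied to cells with 200 to 6000 detected genes and at most 15% mitochondrial UMIs. Cells chosen by these measured values numbered 232 of 5111, 227 of 2597 in WT (8.74%, exact binomial 95% interval 7.68 to 9.89%) and 5 of 2514 in KO (0.199%, 0.0646 to 0.464%). The shares of cells, and the levels of the genes of the rule, are therefore a description. Whether the sort selected on the CD11b named in the labels was not tested, so these are shares of the cells sequenced. All intervals here cover counting error only. The 2 libraries shared 1 barcode, which belonged to no plasma cell.

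Plasma cells are the end stage of the B cell lineage. They leave the cell cycle after a last phase of division as plasmablasts, switch off the B cell programme under the repressor Blimp-1 (gene Prdm1), and enlarge the endoplasmic reticulum (ER) under the transcription factor Xbp1 to fold and export antibody. In the gut most make dimeric IgA held together by the J chain, which the epithelial receptor Pigr carries into the lumen.

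WT plasma cells were among the deeper profiles of their library, with a median of 17807 UMIs (646 to 43701) and 2656 genes, against 4606 UMIs in the other filtered WT cells. The 5 KO cells had 20821, 23920, 25940, 33282 and 39138 UMIs. Immunoglobulin and Jchain took a median of 42.0% of the UMIs of a WT plasma cell (quartiles 27.8 and 55.8%, highest 73.2%). In the KO cells this share was 10.8, 40.8, 53.1, 55.3 and 58.7%, all within the WT range. WT plasma cells were 8.74% of cells but held 21.01% of the UMIs and 97.1% of the immunoglobulin UMIs of the filtered WT cells.

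**Figure D1:**
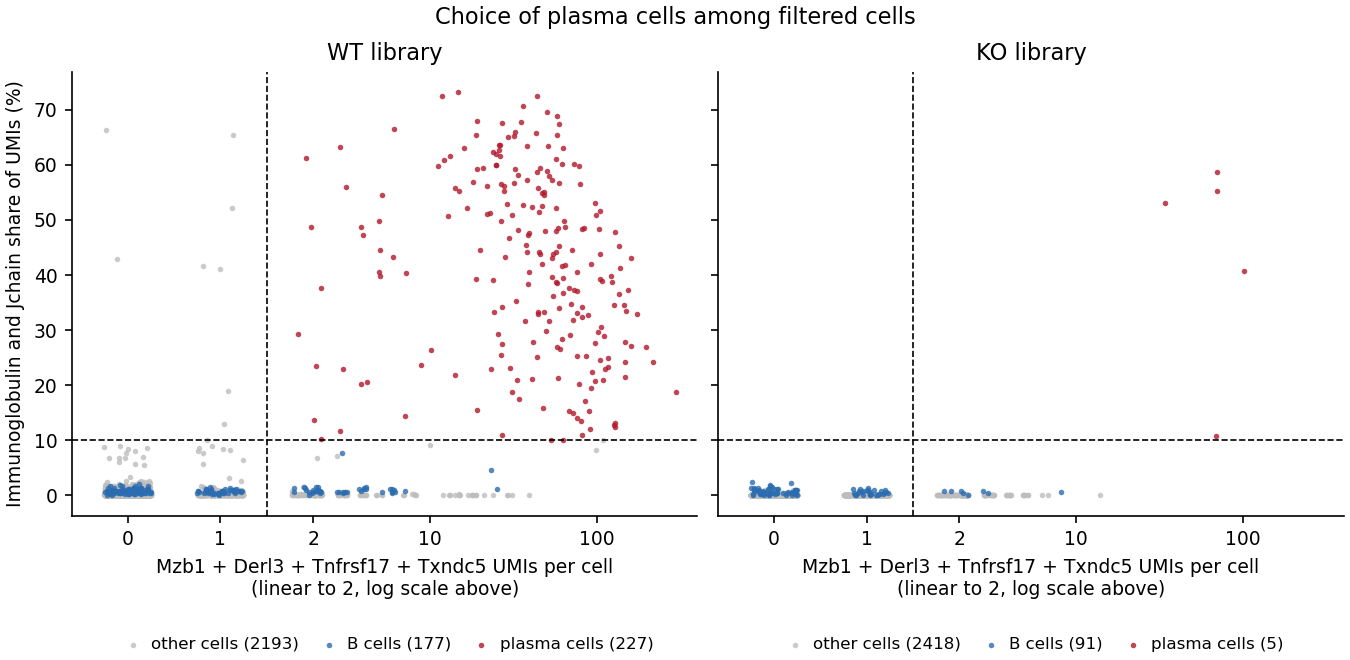
Each point is 1 filtered cell, by UMIs of Mzb1, Derl3, Tnfrsf17 and Txndc5 (x axis, linear to 2 and logarithmic above, points jittered) and by the share of its UMIs from immunoglobulin genes and Jchain (y axis, percent). Dashed lines mark the limits of 10% and of 2 UMIs, past which lie 227 WT and 5 KO cells.

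Few cells lay near the limits. The WT cells just inside had immunoglobulin shares of 10.0, 10.01, 10.2 and 10.97%, and those just outside with enough secretory gene UMIs had 9.99, 9.08, 8.21 and 7.79%. The cells at 9.99 and 8.21% had 109 and 98 UMIs of the 4 secretory genes. A further 9 WT cells passed the immunoglobulin limit with 0 or 1 UMI of these genes, at depths of 508 to 3619 UMIs, and 7 members had exactly 2. Of the genes of the rule, Jchain was present in 227 of 227 WT plasma cells, Mzb1 in 223, Txndc5 in 213, Derl3 in 192 and Tnfrsf17, which encodes the survival receptor BCMA, in 170, which describes the choice and checks nothing. The marker outside the rule, Xbp1, was present in 224 (98.7%), against 47.7% of WT cells that were neither plasma nor B cells. The B cell genes Pax5, a transcription factor gene, and Ms4a1, which encodes CD20, had a UMI in 7 (3.08%) and 18 (7.93%) WT plasma cells. B cells here, 177 in WT, are cells outside the plasma cell rule with at least 2 UMIs of B cell marker genes, Ms4a1, Cd22 and Pax5 among them.

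The class of antibody was read from the heavy-chain constant gene with most UMIs in each cell. Of 226 WT plasma cells with at least 10 heavy-chain constant UMIs, 206 (91.2%, 86.7 to 94.5%) were led by Igha, the IgA constant gene (GRCm38 chr12:113254830-113260236, minus strand). IgG genes led 16 cells (7.08%, 4.10 to 11.2%), of which 11 were led by Ighg2b, 3 by Ighg2c, 1 by Ighg1 and 1 by Ighg3. Ighm, the IgM gene, led 4 cells (1.77%, 0.484 to 4.47%). Ighd and Ighe led none, which allows a share of up to 1.33% each (3 counts of the total). The 1 remaining cell had fewer than 10 heavy-chain UMIs.

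Calls of class were nearly pure. The leading gene held a median of 99.9% of a cell's heavy-chain constant UMIs (first quartile 99.2%), and in 2 cells it held under 90%. One of these was the deepest plasma cell, with 43701 UMIs, of which 2591 were from Igha and 2166 from Ighg2c. The other had 32 Ighg2b and 22 Igha UMIs. An IgA cell held a median of 2524 Igha UMIs (12 to 8673). The 20 cells of other classes held 2 to 73, with a median of 12, against a median of 4 and a 90th percentile of 10 in WT cells that were neither plasma nor B cells.

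Kappa light chain dominated. Igkc, the kappa constant gene, held at least 50% of light-chain constant UMIs in 210 of 227 WT plasma cells (92.5%, 88.3 to 95.6%), and the lambda genes Iglc1 to Iglc4 led in 17 (7.49%, 4.42 to 11.7%). Iglc1 led 12 of the lambda cells, Iglc2 4 and Iglc3 1. Lambda cells made up 16 of 206 IgA cells (7.77%, 4.51 to 12.3%) and 1 of 20 cells of other classes (5.00%, 0.127 to 24.9%), intervals that overlap. In the kappa cells, lambda genes held a median of 1.05% of light-chain constant UMIs (quartiles 0.602 and 1.63%) and 206 of 210 had at least 1 lambda UMI.

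Summed over WT plasma cells, Igkc had 742700 UMIs, Igha 591773 and Jchain 165290, which equals 186127, 148304 and 41423 counts per 1000000 (CPM) of all UMIs. Jchain took a median of 4.22% of the UMIs of an IgA cell (quartiles 2.65 and 5.87%) and 2.53% in the other classes (0.637 to 5.93%), so the ranges overlapped. The IgG and IgM cells had a median of 257 Jchain UMIs, against 717.5 in IgA cells and 0 in WT cells that were neither plasma nor B cells. By depth, IgA cells had a median of 18216.5 UMIs and 43.8% immunoglobulin, and the others 11919 UMIs and 32.3%.

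**Figure D2:**
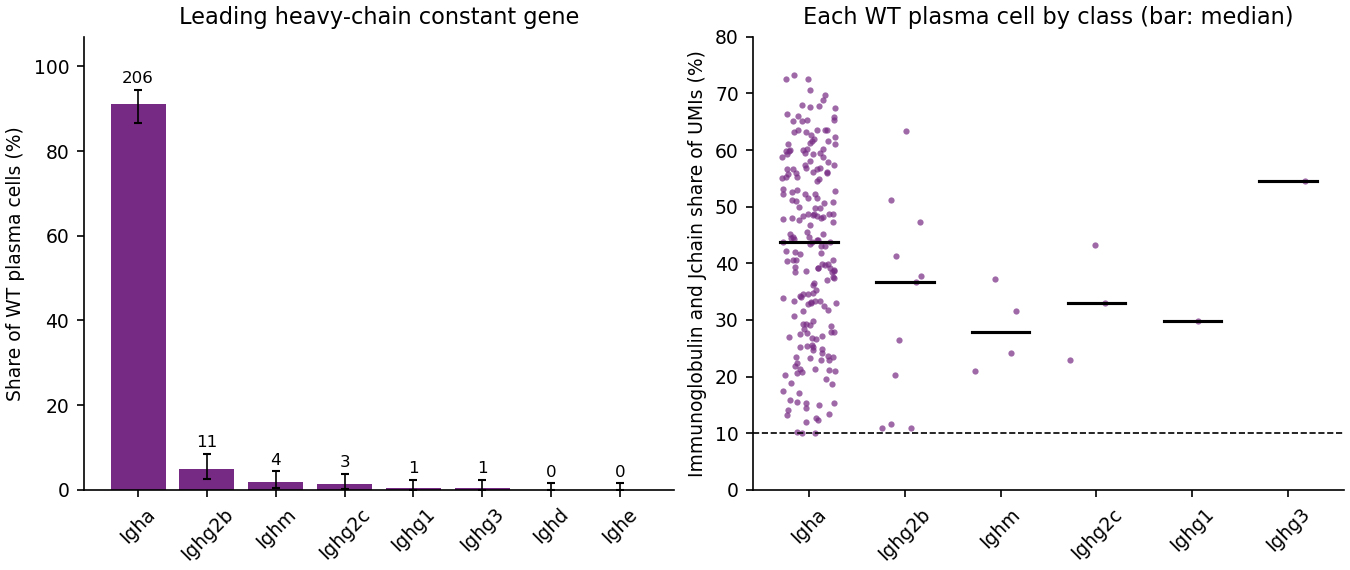
Left, share of 226 WT plasma cells led by each heavy-chain constant gene, with exact binomial 95% intervals and cell numbers above the bars. Right, immunoglobulin and Jchain share of UMIs of each cell by class, with class medians as bars and the 10% limit of the rule dashed. Igha led 206 cells and Ighg2b 11.

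Variable segments carry the antigen-binding part of the antibody and each plasma cell joins 1 heavy and 1 light segment to its constant genes. Libraries read from the 3' end reach them rarely, so only 2111 heavy-chain and 4386 light-chain variable UMIs were found in WT plasma cells, a median of 5 heavy-chain UMIs per cell. In the 122 cells with at least 5, the leading heavy segment held a median of 100% of them (lowest 61.5%), and in 110 cells all fell on 1 segment. The 122 cells used 51 leading segments. Ighv1-81 led 12 cells, Ighv1-9 8, Ighv1-26 7 and Ighv5-4 6, and segments named Ighv1 led 70 (57.4%). Among 180 cells with at least 5 light-chain variable UMIs, Iglv1 led 25, Igkv1-110 19, Igkv1-117 16 and Igkv10-96 10. The Iglv1 count is more than the 17 lambda cells, and 46 of the 210 kappa cells held at least 5 Iglv1 UMIs.

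The germline ends of the segments used most often show how far reads can tell them apart. The last 60 bases before the join are given 5′ to 3′ on the coding strand from GENCODE M21 (GRCm38), with the codon of the conserved cysteine that opens the third hypervariable loop in capitals.
Ighv1-81: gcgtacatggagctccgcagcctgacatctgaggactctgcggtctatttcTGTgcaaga
Ighv1-26: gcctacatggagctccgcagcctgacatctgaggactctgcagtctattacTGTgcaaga
Ighv1-9: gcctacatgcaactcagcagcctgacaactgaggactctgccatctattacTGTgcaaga
Igkv1-110: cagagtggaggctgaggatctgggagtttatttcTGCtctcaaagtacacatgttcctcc
Igkv1-117: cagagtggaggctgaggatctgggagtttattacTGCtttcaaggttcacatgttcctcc
The heavy ends lie on the minus strand at chr12:115920279-115920338 (Ighv1-81), chr12:114788372-114788431 (Ighv1-26) and chr12:114583569-114583628 (Ighv1-9). The kappa ends lie on the plus strand at chr6:68271208-68271267 (Igkv1-110) and chr6:68121768-68121827 (Igkv1-117). Ighv1-81 matches Ighv1-26 at 57 of these 60 bases and Ighv1-9 at 52, and the kappa ends match each other at 56. Counts of single segments within such groups are therefore uncertain.

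Some plasma cells shared both segments. In 110 WT cells with a leading heavy and light segment, each with at least 5 UMIs and 50% of them, 93 combinations of class, heavy and light segment occurred, of which 12 were found in 2 or more cells, 29 cells in all. Every one of the 12 was IgA, a class that led 206 of the 226 cells with a class (91.2%). The 12 therefore do not set IgA cells apart. Ighv1-81 with Igkv1-110 was found in 4 cells, and Ighv1-81 with Igkv1-117, Ighv1-9 with Igkv8-21 and Ighv1-26 with Igkv8-30 in 3 each. Ighv1-20 and Ighv1-9 were each found with Iglv1 in 2 cells. As given above, Iglv1 led more cells than were lambda by constant gene, so these light-chain calls are less certain. UMIs of joining and diversity segments were 0 in these cells, so the junctions that would define a clone were not measured.

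Immunoglobulin RNA was also counted in cells that are not plasma cells, at a higher share in WT. In cells that were neither plasma nor B cells it was 0.280% of WT UMIs (0.277 to 0.282%) and 0.0102% of KO UMIs (0.00981 to 0.0107%). Without the 9 WT cells past the immunoglobulin limit the WT value was 0.236%. At least 1 Igha UMI was found in 94.5% of these WT cells (median depth 4770 UMIs) and 11.4% of the KO cells (6862 UMIs). With 500 UMIs drawn per cell, the shares were 44.1% (42.0 to 46.2%) and 0.993% (0.637 to 1.47%), and WT B cells, at 44.6%, were at the level of the other WT cells. Per Igha UMI, these WT cells held 1.23 Igkc, 0.164 Jchain and 0.0411 Iglc1 UMIs, against 1.26, 0.279 and 0.0687 in WT plasma cells. Ighm, at 0.0858 against 0.0111, was higher per Igha UMI than in plasma cells, and in the KO cells it was 3.68 per Igha UMI, so 1240 of their 2216 immunoglobulin UMIs were Ighm. Droplets without a cell were not examined, so the source of these UMIs was not tested.

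The genes of the secretory pathway were compared between WT plasma cells and the 2370 other filtered WT cells. Levels are CPM of UMIs outside immunoglobulin genes, and log2 ratios were computed with 10 CPM added to both sides. Of 12851 genes with at least 20 UMIs, leaving out the genes of the rule, 155 (1.21%) were at least 4-fold higher in plasma cells and 443 (3.45%) at least 4-fold lower, with a median log2 ratio of -0.11. Because immunoglobulin fills much of a plasma cell's RNA, CPM of all UMIs lowers the ratios of genes found in plasma cells (median of all genes -0.40) and leaves 61 genes at least 4-fold higher and 657 lower. Counts on that scale are given beside those of the lists. Against the 177 WT B cells, 168 of 8662 genes (1.94%) were at least 4-fold higher and 132 (1.52%) at least 4-fold lower, whereas on the scale of all UMIs 65 were higher and 294 lower.

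Entry of nascent chains into the ER and their first sugar transfer stood high as a group. Of 32 genes for translocation, signal cleavage and N-glycosylation, 19 were at least 4-fold higher than in other WT cells and 20 than in B cells (8 and 11 on the scale of all UMIs), none was 4-fold lower, and the median log2 ratio was 2.05, and all 32 ratios were above 0 (31 of 32 on the scale of all UMIs). Sec11c, the catalytic subunit of the signal peptidase, stood at 2180 CPM in plasma cells, 163 in other cells and 181 in B cells (log2 ratio 3.66 against other cells). Its homologue Sec11a stood at 92.8 against 54.4 CPM (0.67). Tram2, a membrane protein beside the translocation channel, stood at 238 against 9.23 CPM (3.69), and Sec61b, a subunit of the channel, at 2381 against 515 (2.19). Srp14, a component of the signal recognition particle, was nearest to the other cells, at 135 against 100.1 CPM (0.40), and lay below them on the scale of all UMIs (-0.28).

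Of 26 ER chaperones and oxidative folding enzymes, 14 were at least 4-fold higher than in other WT cells (9 on the scale of all UMIs) and none 4-fold lower, with a median log2 ratio of 2.12 (2.62 against B cells). Pdia5, named after its values were seen, had 3 UMIs in plasma cells, 1.26 CPM against 18.8 in other cells, and stayed above the 4-fold limit only through the added CPM (log2 ratio without them -3.90, -6.19 to -2.34). Hsp90b1, the ER form of Hsp90, had the largest level of the list at 6750 CPM, against 526 in other cells and 566 in B cells (3.66 against other cells). Pdia4, a disulfide isomerase, stood at 1281 against 51.0 CPM (4.41), Fkbp11, a prolyl isomerase, at 288 against 5.55 (4.26), and Creld2 at 418 against 24.8 (3.62). Hspa5, the ER Hsp70 also called BiP, stood at 2980 CPM in plasma cells but also at 1537 in the other cells, a log2 ratio of 0.95. It was thus the most abundant chaperone RNA outside the plasma cells and, on the scale of all UMIs, lay near their level (0.21).

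Of 15 genes for ER-associated degradation, which removes misfolded chains, 6 were at least 4-fold higher (2 on the scale of all UMIs, median 1.99), led by Edem2 at 459 against 24.7 CPM (3.76) and Edem1 at 1350 against 119 (3.40), both of which trim mannose from misfolded glycoproteins. Of 26 genes for ER to Golgi transport, 2 were (1 on the scale of all UMIs, median 1.23), the cargo receptor gene Lman1 at 560 against 33.3 CPM (3.72) and the coat gene Sec24a at 307 against 41.2 (2.63). Of 9 genes of the PERK branch and other stress-induced genes, 3 were (1 on the scale of all UMIs, median 0.83). Chac1, which degrades glutathione, stood at 163 against 7.62 CPM (3.29), while Ddit3, which encodes CHOP, stood at 136 against 76.5 (0.75) and Ppp1r15a at 400 against 658 (-0.70). No gene of these 3 lists was 4-fold lower.

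**Figure D3:**
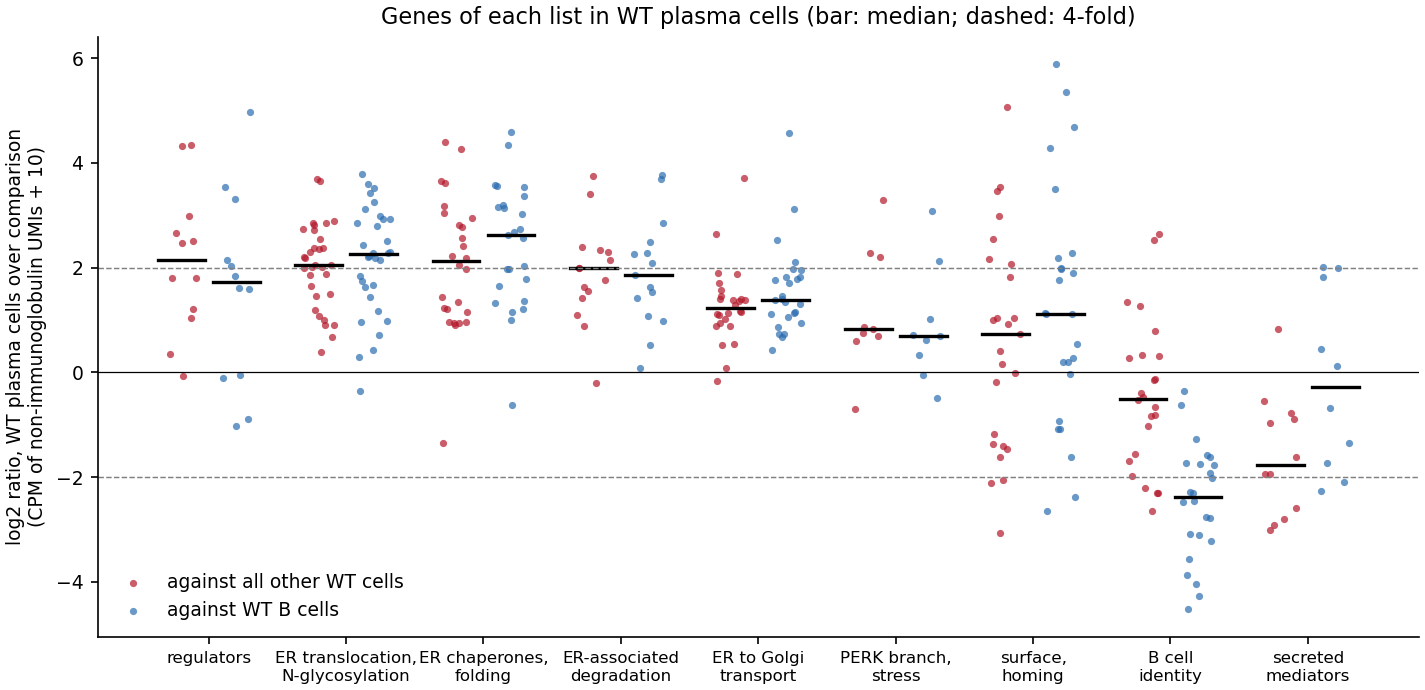
Each point is 1 gene with at least 20 UMIs in the compared cells, as the log2 ratio of CPM (plus 10) in WT plasma cells over all other WT cells (red) or WT B cells (blue), with list medians as bars and 4-fold dashed. The translocation and chaperone lists have medians of 2.05 and 2.12 against other WT cells. The B cell identity list, which holds the genes that chose the B cells, has a median of -2.38 against B cells, and of -2.15 without those genes.

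Promoters of the listed genes were searched for known elements in the reference sequence, a search that used no count from these cells. The ER stress response element, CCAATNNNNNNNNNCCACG on either strand, was found in the 250 bases before the start of 7 of 22 chaperone list genes in the RefSeq promoter table (31.8%), namely Hspa5, Hsp90b1, Calr, Canx, Creld2, Dnajc3 and Pdia6, against 0.113% of all 32851 promoters and 0.13% of all 27025 genes in it. It was also found in Syvn1 of the degradation list, 1 of 13, and in Derl3 of the rule. None of 24 translocation, 22 transport and 10 regulator genes held it, nor did any of the 10 of the 15 genes with the highest log2 ratios that are in the table. The element TGACGTGG, a binding sequence of Xbp1 and ATF6, was found in Txndc5, Txndc11, Pou2af1, Ube2j1, Sec24d, Kdelr3 and Copb1, in the T cell marker Cd3e and in 0.603% of all genes. The promoters of 3 chaperone genes and of Derl3 are shown 5′ to 3′ on the coding strand (RefSeq, GRCm38.p6), with the ER stress response element in capitals.
Hspa5: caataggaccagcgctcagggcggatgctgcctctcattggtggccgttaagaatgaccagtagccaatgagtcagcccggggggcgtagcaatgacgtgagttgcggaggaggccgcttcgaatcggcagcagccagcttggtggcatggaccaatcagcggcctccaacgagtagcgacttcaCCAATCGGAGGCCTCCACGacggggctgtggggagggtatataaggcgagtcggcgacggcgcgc
Hsp90b1: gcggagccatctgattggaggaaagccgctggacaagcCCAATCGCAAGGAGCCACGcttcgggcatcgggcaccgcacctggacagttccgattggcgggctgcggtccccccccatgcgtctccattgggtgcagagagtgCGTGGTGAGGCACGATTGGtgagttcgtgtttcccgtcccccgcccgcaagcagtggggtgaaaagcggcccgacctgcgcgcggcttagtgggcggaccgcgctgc
Creld2: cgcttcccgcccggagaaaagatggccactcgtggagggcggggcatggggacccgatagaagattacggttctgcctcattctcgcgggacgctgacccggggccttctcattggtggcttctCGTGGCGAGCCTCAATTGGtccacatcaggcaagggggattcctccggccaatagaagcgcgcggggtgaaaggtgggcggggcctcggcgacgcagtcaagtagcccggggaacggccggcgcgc
Derl3: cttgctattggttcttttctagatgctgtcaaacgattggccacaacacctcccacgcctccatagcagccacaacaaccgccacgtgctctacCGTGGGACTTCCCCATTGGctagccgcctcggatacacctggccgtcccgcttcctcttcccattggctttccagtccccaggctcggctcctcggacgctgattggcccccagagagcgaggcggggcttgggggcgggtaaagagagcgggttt
They lie at chr2:34771840-34772089 on the plus strand (Hspa5), chr10:86705445-86705694 on the minus strand (Hsp90b1), chr15:88819396-88819645 on the plus strand (Creld2) and chr10:75893148-75893397 on the plus strand (Derl3). Hsp90b1 held 2 matches and the other promoters 1 each. The ER stress response element is known from chaperone promoters, so its presence there tests nothing about these plasma cells. These matches are a description of the letters, not of binding.

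Regulators of the plasma cell state ranged from level to high. Of 12 genes, 6 were at least 4-fold higher than in other WT cells (3 on the scale of all UMIs), with a median log2 ratio of 2.14. Xbp1 stood at 3580 CPM against 169 in other cells and 105 in B cells (4.33 against other cells), and a plasma cell held a median of 34 Xbp1 UMIs. Pou2af1, a coactivator of octamer-binding factors in B cells, stood at 472 against 13.7 CPM (4.35) and was also present in B cells at 148. Prdm1 stood at 174 CPM, 69.3 in other cells and 35.0 in B cells (1.22 against other cells). Irf4, required for plasma cell survival, stood at 162 CPM in plasma cells and 338 in B cells, a log2 ratio of -1.02.

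Genes of the B cell programme were lower than in B cells. Of 24 B cell identity genes, 15 were at least 4-fold lower than in WT B cells and none 4-fold higher, with a median log2 ratio of -2.38 (21 lower on the scale of all UMIs), but this list holds the genes that chose the B cells. Without them, 11 of 20 were at least 4-fold lower (17 on the scale of all UMIs), all 20 ratios were below 0 and the median was -2.15. Several of the genes passed the minimum of 20 UMIs only through the B cells. Ccr7, a receptor that guides B cells into lymph nodes, stood at 54.6 against 755 CPM (-3.57) and the repressor gene Bach2, which holds back plasma cell differentiation, at 29.0 against 354 (-3.22). The B cell receptor genes Cd79a, at 533 against 1296 CPM (-1.27), and Cd79b, at 313 against 490 (-0.63), kept a larger part of the B cell level. Cd74, the class II invariant chain, stood at 3097 against 9280 CPM (-1.58). For the class II gene H2-Aa, at 796 CPM, 38.3% of the UMIs lay in 5 of the 227 plasma cells.

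The gene with the highest log2 ratio outside the rule was Ccr10, the receptor for the epithelial chemokine CCL28 that guides IgA plasma cells to mucosa (GRCm38 chr11:101172997-101175443). It stood at 370 CPM (346 to 395) in WT plasma cells and 1.34 in other cells, a log2 ratio of 5.07, and had a UMI in 81.1% of plasma cells and 0.506% of the others. With 2000 UMIs outside immunoglobulin genes drawn per cell, which left out 21 plasma cells, the shares were 52.9% (45.9 to 59.9%) against 0 of 161 B cells (which allows up to 1.86%) and 0.127% of 1581 remaining cells. After Ccr10 came the elongation factor partner gene Eaf2 (5.05), Pdia4, Trp53inp1 (4.38), Pou2af1, Xbp1, Ly6d (4.28), Fkbp11, Fam214a (4.12), Dusp4 (3.79), Edem2, Lman1, Manea (3.69), Tram2 and Ckap4 (3.67). Of these 15 genes, 8 belong to the lists for secretion, regulators or homing.

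Ccr9, the receptor for CCL25, which is best known for homing to the small intestine, stood at 144 CPM against 16.4 in other cells (2.54) and had a UMI in 37.0% of plasma cells. Both receptors were found in 76 of 227 WT plasma cells, Ccr10 alone in 108, Ccr9 alone in 8 and neither in 35. A cell without a UMI may still express the gene.

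Among the other surface genes, Sdc1, which encodes CD138, stood at 438 against 28.4 CPM (3.55), Cd28, a costimulatory receptor that supports plasma cell survival, at 589 against 43.9 (3.47), Tnfrsf13b, which encodes the APRIL and BAFF receptor TACI, at 276 against 25.9 (2.99), and Slc7a5, a subunit of an amino acid transporter, at 152 against 25.9 (2.17). Ly6c2, a surface antigen also found on monocytes, stood at 1412 CPM against 327 in other cells and 14.0 in B cells and varied widely between plasma cells, from 0 to 186 UMIs per cell with a median of 3. Cxcr4, the receptor for the bone marrow chemokine CXCL12, was lower in plasma cells, at 127 CPM, than in other cells, at 413, and B cells, at 847. In all, 7 of 25 surface and homing genes were at least 4-fold higher than in other WT cells and 3 at least 4-fold lower, whereas 4 were higher and 6 lower on the scale of all UMIs.

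**Figure D4:**
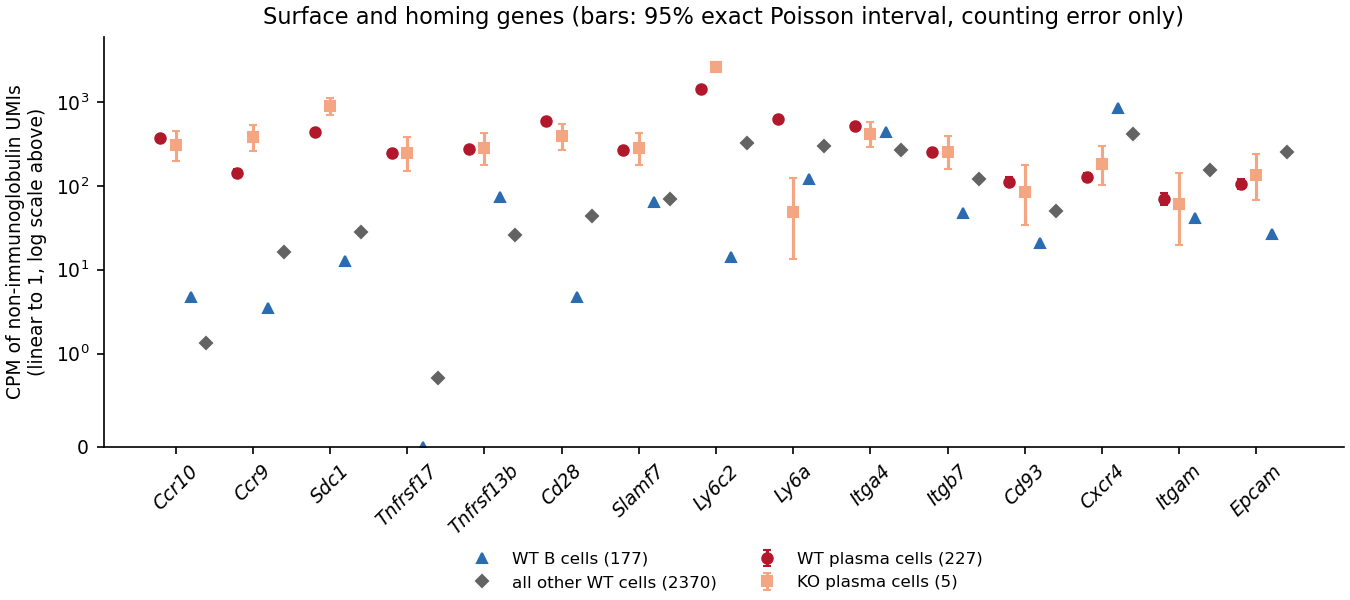
Level of 15 surface and homing genes as CPM of UMIs outside immunoglobulin genes (linear to 1, logarithmic above) in WT plasma cells, KO plasma cells, WT B cells and all other WT cells. Bars are exact Poisson 95% intervals, which cover counting error only. Ccr10 stands at 370 CPM in WT plasma cells and 1.34 in other WT cells.

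Itgam, which encodes the CD11b protein named in the labels, stood at 69.7 CPM in WT plasma cells, 40.8 in B cells and 154 in other WT cells. With 2000 UMIs drawn per cell it was found in 9.22% of plasma cells (5.65 to 14.0%), 7.45% of B cells and 26.4% of the remaining cells. Itgam UMIs in plasma cells equalled 0.469 of those of the macrophage gene Lyz2, against 0.0906 in the cells that are neither plasma nor B cells. Epcam, an epithelial adhesion gene, was found in 52.9% of plasma cells and stood at 105 CPM against 254 in other WT cells. With 2000 UMIs drawn per cell, Epcam was found in 20.4% of plasma cells (15.1 to 26.5%), 0.621% of B cells and 8.98% of the remaining cells. Its ratio to the keratin gene Krt8 was 3.35 in plasma cells, 0.219 in B cells and 0.286 in the remaining cells. These ratios differ from those of the cells that express the marker genes together, and the part of free RNA in them was not tested.

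Markers of other cell types were low but not at 0. Every one of 36 markers of macrophages, dendritic cells, granulocytes, T and NK cells and epithelium had at least 1 UMI in WT plasma cells. The 10 macrophage and monocyte markers summed to 316 CPM (0 to 8164 per cell, median 74.8) against 3718 in cells that were neither plasma nor B cells, and the 7 epithelial markers to 173 CPM (0 to 2715) against 2109. The 7 T and NK cell markers summed to 120.5 CPM and were at 0 in 201 of 227 plasma cells. In no plasma cell did all these markers reach 1% of UMIs outside immunoglobulin genes (highest 0.876%). The median was 0.504% in WT cells that were neither plasma nor B cells. Staying under 1% thus does not show that a droplet held 1 cell. The 5 genes with the lowest log2 ratios were epithelial genes, the Paneth cell defensins Defa24 (-5.92) and Defa17 (-5.62), Spink4 (-5.21), Pigr (-4.76) and Lypd8 (-4.75). Pigr stood at 13.4 CPM in plasma cells against 624.

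Secreted mediators were mostly lower than in the other WT cells. Of 12 genes measured, none was at least 4-fold higher in WT plasma cells and 4 were at least 4-fold lower (7 on the scale of all UMIs), with a median log2 ratio of -1.77. Against B cells, 1 of 10 was higher and 2 were lower, with a median of -0.28. Il10 had 59 UMIs in 227 cells, 24.8 CPM against 200.5 in other WT cells (-2.60), spread over 43 cells. Ccl5 had 464 UMIs, of which 90.7% lay in 5 cells.

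A part of the plasma cells carried RNA of cell division. The UMIs of 13 cell cycle genes were summed per cell, and a limit of 10 UMIs was set after the values had been seen. It marked 49 of 227 WT plasma cells (21.6%, 16.4 to 27.5%), while 66 cells had 0, 12 cells had 5 to 9 and 3 had 10 to 14. With 2000 UMIs outside immunoglobulin genes drawn per cell and a limit of 2, the share was 27.2% of plasma cells, 10.6% of B cells and 9.68% of the remaining cells. Mki67, a proliferation marker, stood at 685 CPM in the cycling and 60.6 in the other plasma cells, and Top2a, which untangles replicated DNA, at 631 and 15.3. These genes chose the cells.

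Cycling plasma cells held a similar number of immunoglobulin UMIs but more of all other RNA. Immunoglobulin and Jchain had a median of 6515 UMIs in cycling and 6229 in other plasma cells, whereas UMIs outside these genes had medians of 18960 and 7234.5. The immunoglobulin share was thus 26.9% (quartiles 15.9 and 33.4%) in cycling and 48.0% (34.7 and 58.1%) in other plasma cells. The rule keeps cells from 10% on, so cycling cells below it were not counted. Of the 4 cells just outside, 2 had at least 10 cell cycle UMIs, 10 and 34.

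**Figure D5:**
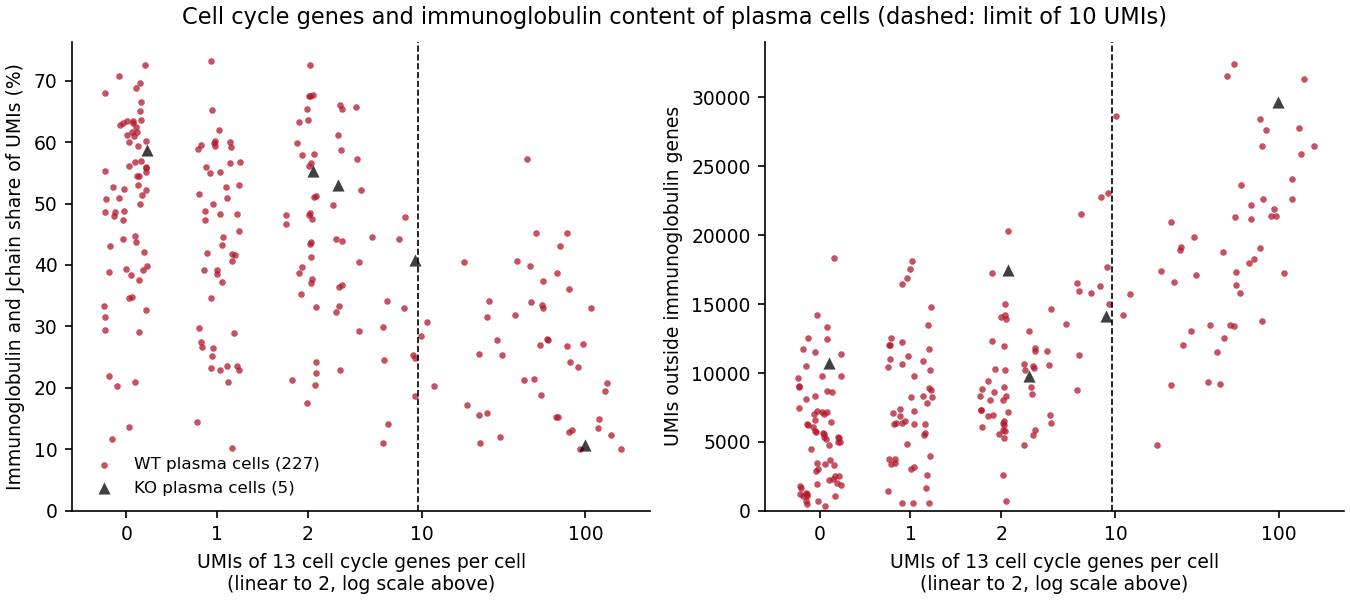
Each point is 1 plasma cell, by UMIs of 13 cell cycle genes (x axis, linear to 2 and logarithmic above, points jittered) and by its immunoglobulin and Jchain share of UMIs (left) or its UMIs outside these genes (right). WT cells past the dashed limit of 10 UMIs have median shares of 26.9%, against 48.0% in the other WT cells.

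Relative to the other UMIs outside immunoglobulin genes, genes of ER entry and folding stood at similar levels in both sets. Among 7790 genes measured, 427 (5.48%) were at least 2-fold higher in cycling plasma cells and 326 (4.18%) at least 2-fold lower (698 and 70 on the scale of all UMIs, where the median of all genes moved from -0.05 to 0.28). None of 32 translocation genes (median log2 ratio 0.06) and none of 25 chaperone genes (-0.0035) passed 2-fold in either direction. On the scale of all UMIs their medians were 0.51 and 0.45 and 2 translocation genes passed 2-fold. The degradation list had a median of -0.51 with none of 15 genes past 2-fold, and the transport list -0.17 with 1 of 26 lower. Hsp90b1 stood at 6655 CPM in cycling and 6813 in other plasma cells. Of 24 surface and homing genes, 4 were at least 2-fold lower (2 on the scale of all UMIs) and none 2-fold higher. Markers of other cell types were lower too, with medians of -1.07 for macrophages (4 of 7 at least 2-fold lower), -1.56 for dendritic cells (2 of 3), -1.62 for granulocytes (3 of 4), -0.48 for T and NK cells (0 of 6) and -0.67 for epithelium (0 of 3), and their part in these values was not tested. Of 16 B cell identity genes, 5 were at least 2-fold lower (0 on the scale of all UMIs), with a median of -0.74. Ly6c2 stood at 388 CPM in cycling and 2086 in other plasma cells, and Sdc1 at 269 and 550. Xbp1 stood at 2326 and 4406 CPM, and Cd79a at 278 and 702. Ccr10, at 325 and 400 CPM, and Ccr9, at 139 and 147, were nearer to each other. Igha led 47 of the 49 cycling cells (95.9%, 86.0 to 99.5%) and 159 of the 177 others with a class (89.8%, 84.4 to 93.9%).

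IgA cells were set against the 20 WT plasma cells of other classes. Of 7788 genes, 609 (7.82%) were at least 2-fold higher in IgA cells and 159 (2.04%) at least 2-fold lower. On the scale of all UMIs these numbers were 202 and 200. Of 24 surface and homing genes, 7 were at least 2-fold higher in IgA cells (3 on the scale of all UMIs), namely Ccr9, Ccr10, Cd28, Cd93, Itgb7, S1pr1 and Itgae, and 2 were lower, Ly6a and Il6ra. Markers of other cell types differed in both directions. In IgA cells 3 of 7 of macrophages (C1qb, Lyz2 and Csf1r, list median 0.55) and 2 of 6 of T and NK cells (Nkg7 and Trac, 0.33) were at least 2-fold higher, and 1 each of dendritic cells (Cd209a, -0.15), granulocytes (S100a9, -0.52) and epithelium (Krt8, -0.02) lower. Their part in the result was not tested. Ccr9 stood at 154 CPM (138 to 171) in IgA cells, with a UMI in 83 of 206, and at 11.5 (1.39 to 41.4) in the others, with 2 UMIs in 1 of 20 cells. Ccr10 stood at 386 against 172 CPM, in 85.4% (79.9 to 89.9%) and 40.0% (19.1 to 63.9%) of cells. Itgb7, the integrin chain of the gut homing pair, stood at 264 against 114 CPM (1.14, 0.90 on the scale of all UMIs), and its partner Itga4 at 503 against 601 (-0.25). Both homing receptors were found together in 76 IgA cells and in 0 of the 20 others (which allows up to 15.0%). IgA cells were the deeper ones, with a median of 9022 against 7844.5 UMIs outside immunoglobulin genes.

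The non-IgA cells had more of several B cell genes. Of 16 B cell identity genes, 4 (Cd79a and Ms4a1 among them) were at least 2-fold lower in IgA cells and none 2-fold higher. Cd79a stood at 447 CPM in IgA and 1632 in other cells, and Ms4a1 at 13.6 and 120, with a UMI in 12 of 206 and 6 of 20 cells. The 5 genes with the highest log2 ratio for IgA were the metallothionein gene Mt2, the antiprotease gene Slpi, Ccl5, Ccr9 and the histone gene Hist1h1b. In the other classes these had 0 to 3 UMIs, so that the ratios without added CPM are wide, with exact log2 intervals of 2.77 to 10.56 for Mt2, 2.25 to 6.09 for Slpi, 2.05 to 5.89 for Ccl5 and 1.89 to 6.80 for Ccr9. Hist1h1b had 112 UMIs in IgA cells and 0 in the others. The 5 lowest were Mgl2 (-3.11), Apoe (-3.08), Cyp4f18 (-2.49), Ms4a1 (-2.46) and Cd209a (-2.30). Without the non-IgA cell with most of its UMIs, Cd79a stood at 1266 and Ms4a1 at 54.3 CPM in the other classes (log2 ratios -1.48 and -1.45). Single cells decide some of these values. Of the non-IgA UMIs, all 25 of Mgl2 and all 26 of Cd209a, both lectins of dendritic cells, lay in 1 cell, 75 of 160 of Apoe and 12 of 21 of Ms4a1 lay in 1 cell, and 151 of 461 Ccl5 UMIs of the IgA cells lay in 1 cell. Of 17 cell cycle genes, 8 were at least 2-fold higher in IgA cells (3 on the scale of all UMIs). The translocation list had a median of -0.10 with no gene past 2-fold, and the chaperone list -0.48 with Ero1lb and Fkbp11 lower in IgA cells.

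The 5 KO plasma cells were all led by Igha, at 99.7 to 100% of heavy-chain constant UMIs, and all by Igkc. They held 1048 to 6759 Igha and 478 to 2378 Jchain UMIs. With exact binomial limits, 5 of 5 allows an IgA share from 47.8% on. Their leading heavy segments were Ighv1-7, Ighv1-36, Ighv3-6, Ighv7-1 and, at 1 of 2 UMIs only, Ighv1-58, so no segment led more than 1 cell. The cell with 99 cell cycle UMIs was the one with the lowest immunoglobulin share, 10.8%, and the other cells had 0, 2, 3 and 9. In 1 cell, 14 Ighe UMIs were found, whereas Ighe had 0 UMIs in WT.

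List sums of the secretory genes stood at similar levels in KO and WT plasma cells, while single genes lay on both sides. The 32 translocation genes summed to 19137 CPM in KO and 19234 in WT (log2 ratio -0.01, exact interval -0.08 to 0.07), and the chaperones to 21618 and 21046 (0.04, -0.03 to 0.11). The interval of the single-gene ratio held 0 for 20 of 32 translocation and 18 of 25 chaperone genes, with Stt3b (1.55), Sec11a (1.40) and Prdx4 (1.31) higher and Rpn1 (-0.88) and Sec11c (-0.54) lower in KO. The 12 regulators summed to 6905 and 7584 (-0.14, -0.26 to -0.01). Per cell, the KO translocation sums of 14810 to 27399 CPM lay around the WT median of 19572 (10th to 90th percentile 9320 to 27268). Xbp1 stood at 2468 CPM (2140 to 2833) in KO and 3580 in WT, Ccr10 at 306 (198 to 451) and 370, and Sdc1 at 892 (699 to 1122) and 438. Of the 73 Sdc1 UMIs in KO, 36 lay in 1 cell, and without it the level was 514 CPM. All 31 Ccr9 UMIs in KO lay in 1 cell. With 5 cells from 1 library, intervals this narrow hold for the pooled UMIs and not for KO plasma cells in general.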

How the data were processed

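The authors sorted cells from the colon lamina propria of wild-type and knockout mice, made 10x 3' v3 libraries and deposited, for each genotype, 1 matrix of UMI counts per gene and cell barcode. Per the file headers the counts came from Cell Ranger 3.0.2, and the submitters' processing notes name mm10 and Seurat 4. The deposited counts were raw whole numbers for 31053 features, 22191774 UMIs over 3185 barcodes in WT and 23384895 over 3020 in KO. The study's clustering and Poisson models were not used here.

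Python 3.11.15, numpy 2.4.6, pandas 2.3.3, scipy 1.17.1 and matplotlib 3.10.9 were used. Cells with 200 to 6000 genes and at most 15% mitochondrial UMIs were kept. The rule for plasma cells matched 379 features as immunoglobulin, 1 of which, Ighmbp2, encodes a helicase (20 UMIs in WT plasma cells). B cells were other cells with at least 2 UMIs of B cell marker genes, Ms4a1, Cd22 and Pax5 among them, and 1 gene of this set is not reported here. No doublet caller was run. Markers of other cell types were summed per plasma cell, and none reached 1% of UMIs outside immunoglobulin genes. The median of WT cells that were neither plasma nor B cells was itself 0.504%. This sum therefore cannot replace a doublet call. UMIs were summed per group of cells and divided by the sum outside immunoglobulin genes. Genes with at least 20 UMIs were compared, with 10 CPM added. Shares have Clopper-Pearson intervals, CPM exact Poisson intervals and ratios of summed UMIs exact conditional binomial intervals. With 1 library per genotype and cells that are not replicates, no test was run. For shares of cells with a UMI, 2000 UMIs outside immunoglobulin genes were drawn per cell.

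The members and gene lists were chosen with earlier results of these data known. List genes with at least 50 UMIs in WT plasma cells could be named, together with the 15 genes with the highest ratio to other WT cells and a UMI in at least 10% of plasma cells, the 5 lowest, and the 5 highest and lowest for IgA against other classes. Some list genes below this minimum were named too, among them Pdia5 with 3 UMIs and the macrophage marker Csf1r with 42. Alternatives were other limits of the rule, filters, added CPM, denominators and gene minimums. The calculation of ratios and intervals was tested on simulated data. Identifiers of 31011 features were found in GENCODE M21. Promoters came from RefSeq (GRCm38.p6), 250 bases before each start.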

Additional observations from a re-analysis of the deposited data

How the results depend on the processing

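Of 100 values recomputed under other settings, 87 stayed within the interval of the value reported (for counts of genes, within 1.5 times), 13 moved out of it and 0 reversed in direction. Shares and counts of genes have no sign, so a reversal was possible only for the list medians. The 87 include values that could not move. Leaving out plasma cells at 1% markers of other cell types removed 0 cells. The median share of the leading heavy segment was at its ceiling of 100% in every setting. The share of plasma cells in WT was 7.19% with no filter on cells and 9.90% with 500 to 6000 genes and at most 10% mitochondrial UMIs, against 8.74%. The immunoglobulin share of WT cells that were neither plasma nor B cells, 0.280%, was 0.601% when plasma cells needed 20% immunoglobulin, 0.367% when they needed 4 secretory gene UMIs, 0.273% with no cell filter, 0.245% with the stricter filter and, in an alternative chosen after seeing the data, 0.236% without cells past 10% immunoglobulin. In KO it was 0.0267% at a limit of 20% and 0.0116% with no cell filter, against 0.0102%. Cells that a limit turns out of the plasma cells enter these sums by construction. The 155 genes at least 4-fold higher became 61 with CPM of all UMIs and 385 with 1 CPM added in place of 10, and the 443 lower genes became 1868 with 1 CPM added. With 1 CPM added the median of the B cell identity list was -3.25 in place of -2.38. The median of the chaperone list was 1.40 with CPM of all UMIs in place of 2.12, a shift inside the range set for this median from the order of its genes. The share of cycling plasma cells was 26.9% with a limit of 5 UMIs, 19.4% with 20 and 27.2% with a limit of 2 after 2000 UMIs outside immunoglobulin genes were drawn per cell, all chosen after seeing the data.

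No paired analysis was possible because each genotype had 1 library. The low depth of variable segments limited the heavy segment calls to 122 cells and the light segment calls to 180. The 5 KO plasma cells limit every value given for KO.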

Other observations

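Other single genes were lower in cycling plasma cells. Fos stood at 212 CPM of UMIs outside immunoglobulin genes in cycling and 810 in other WT plasma cells, and Egr1 at 47.6 and 226. Trf, the transferrin gene, stood at 51.8 and 225. These 3 genes were chosen after their values were seen. Cd74 stood at 1816 and 3941 CPM and H2-Aa at 401 and 1057. Macrophage, dendritic cell and granulocyte markers had the same direction in these cells, as given above.

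Among the 5 genes with the lowest ratio in WT plasma cells, Defa24 had 24502 UMIs in all filtered WT cells and 1 in KO, Defa17 8465 and 0, Spink4 17815 and 1686, Lypd8 9860 and 148, and Pigr 9365 and 350. The libraries thus differed in epithelial RNA, that of Paneth cell defensins included, as well as in plasma cells. The labels name only the gut and the study the colon. Whether both libraries came from the same part of the gut was not tested. Ly6d stood at 659 CPM in WT and 2835 in KO plasma cells, and Ly6a at 630 and 48.9. Both differences rest on 5 KO cells of 1 library.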
